A study of Mus musculus with 8 samples.

Results

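The genes described here make up the cholesterol and fatty acid synthesis programme of 4T1 spheroids. They are 30 named rows of the deposited count table, of 41730 rows in all: 17 enzymes of the mevalonate and sterol pathway, 6 regulators of the SREBP transcription factors including 1 sterol carrier, and 7 enzymes of fatty acid synthesis. They were chosen by name for their function, with earlier results of these data known, and all 30 passed the filter on low counts. 4T1 is a mouse mammary carcinoma cell line that serves as a model of aggressive breast cancer. A lentivirus brought either a short hairpin RNA against Tlr7, the gene of an endosomal receptor for single-stranded RNA (shTlr7, 4 libraries), or a scrambled hairpin (shCtrl, 4 libraries). Both groups were grown as hanging-drop spheroids in DMEM with serum, and bulk RNA was sequenced to ask how the hairpin against Tlr7 alters gene expression. The labels name 1 hairpin per group and do not say whether the libraries came from separate cultures or transductions, so a p-value reflects no more than the spread between these libraries, which may be technical.

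Cholesterol is built from acetyl-CoA through mevalonate, farnesyl diphosphate, squalene and lanosterol, and fatty acids are built from the same acetyl-CoA through malonyl-CoA. Both pathways are switched on by SREBP proteins, which are held in the endoplasmic reticulum with their escort SCAP. When membrane sterol is low, SCAP carries them to the Golgi, where proteases free the part that enters the nucleus, while INSIG proteins retain the complex when sterol is plentiful. SREBP2, from Srebf2, acts mostly on cholesterol genes, and the SREBP1 forms, from Srebf1, act more on fatty acid genes. Tumour cells often make both kinds of lipid for their membranes.

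The libraries held 18.1, 93.8, 34.0 and 28.4 M counts in shTlr7 replicates 1 to 4, and 19.2, 51.5, 20.3 and 23.4 M in shCtrl replicates 1 to 4. Tlr7 itself had 0, 4, 3 and 0 counts in shTlr7 and 2, 3, 2 and 2 in shCtrl, too few to be tested or to check the labels. Expression is given as CPM, the count of a gene per M counts on TMM-scaled library sizes, and a gene is called where its adjusted p from edgeR's quasi-likelihood test is under 0.05. Sums over marker genes are instead per M counts of the unscaled library total. The TMM factors left out of these sums were 1.03 to 1.05 in shTlr7 and 0.960 to 0.969 in shCtrl. Small differences between the groups in the sums therefore depend on scaling. All 7 epithelial markers examined were expressed, with a summed level of 4224 to 4590 CPM in shTlr7 and 5399 to 5835 CPM in shCtrl. They did not move together: Epcam and Cdh1 rose, and the keratins Krt8, Krt18, Krt14, Krt7 and Krt19 fell. Krt14 averaged 3.26 ± 1.08 CPM in shTlr7 and 36.2 ± 2.95 CPM in shCtrl, and Krt7 averaged 635 ± 54.5 CPM in shTlr7 and 1443 ± 113 CPM in shCtrl (SD, n = 4 each). The 5 markers of adipocytes, which make much lipid, summed to at most 0.395 CPM in shTlr7 and 1.48 CPM in shCtrl, with Lep at 0. The 4 endothelial markers summed to at most 0.663 CPM in shTlr7 and 0.364 CPM in shCtrl. The 5 fibroblast markers summed to 44.5 to 49.4 CPM in shTlr7 and 42.1 to 43.8 CPM in shCtrl, nearly all Pdgfra, with Col3a1 at 0. The 5 leukocyte markers summed to 32.8 to 45.8 CPM in shTlr7 and 22.2 to 27.2 CPM in shCtrl, nearly all Cd68, with Adgre1 at 0. Cd68 rose (log2 fold change 0.72, adjusted p = 1.41e-04). Csf1r fell, from a mean of 1.14 CPM in shCtrl to 0.241 CPM in shTlr7 (log2 fold change -2.17, adjusted p = 4.39e-06). The part of these markers, epithelial ones included, in the results was not tested.

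Most of the programme stood at a lower level in shTlr7 spheroids, by small amounts. Of the 30 genes, 17 fell, 6 rose and 7 were not called. In this comparison 26.8% of the 13393 genes tested fell, 29.3% rose and 56.1% were called in either direction; among the 30 genes these shares were 56.7%, 20.0% and 76.7%. Replicate 4 differed most from the other libraries within both groups, with a chi-square per degree of freedom of 10.7 to 20.4 against them. Other pairs gave 4.31 to 9.51 in shTlr7 and 2.15 to 3.10 in shCtrl, so replicate 4 stood apart more clearly in shCtrl. The measure is taken on raw counts and also grows with depth, so pairs of unlike depth are not strictly comparable by it. With both replicate 4 libraries left out, 17 of the 30 genes fell and 6 rose. The median log2 fold change of the 30 genes was -0.18, beside 0.01 over all genes tested. The CPM of the 2 groups did not overlap for 20 of the 30 genes (66.7%), against 49.8% of all genes tested. None of the 30 was called with a change past 1.5-fold in either direction, whereas 17% of all genes tested were. Without TMM scaling, on library size only, the median log2 fold change of all genes moved to 0.11, a shift of 0.10, and the 30 genes then split into 9 that rose and 10 that fell, beside 5513 and 2491 of all genes tested. On that scaling Hmgcs1, Mvk, Idi1, Sqle, Cyp51, Ebp and Acaca, 7 of the 17 that fell, were no longer called. Mvd, Insig2 and Scd2, not called with TMM scaling, were then called higher. In bulk RNA, fewer cells that carry a transcript and less of it per cell cannot be told apart.

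**Figure D1:**
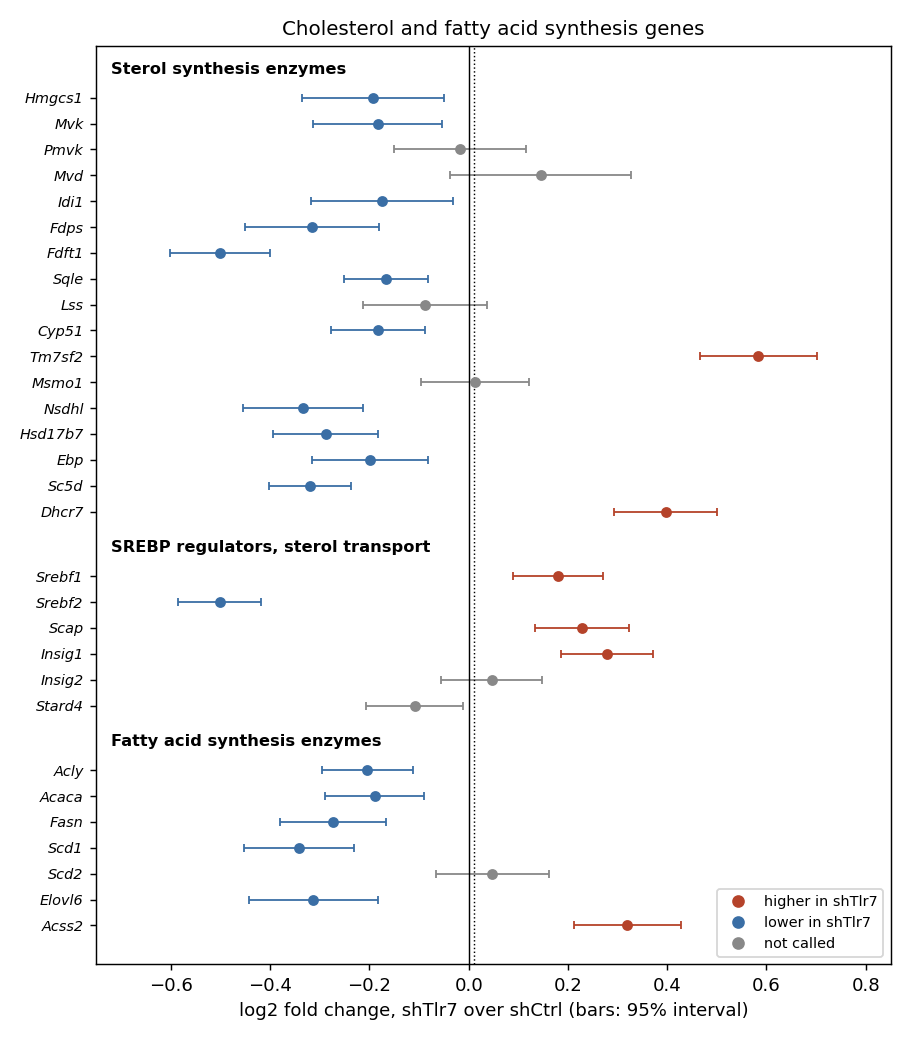
Log2 fold change (shTlr7 over shCtrl) of each of the 30 genes, by role. Lines show the 95% interval from the edgeR fit on 4 libraries per group. Red points are genes called higher in shTlr7 and blue points genes called lower, at adjusted p under 0.05, and grey points are genes not called. Values run from -0.50 for Fdft1 and Srebf2 to 0.58 for Tm7sf2, and most sterol and fatty acid enzymes lie below 0.

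Proximal promoters are shown for 4 genes that moved in different ways: Hmgcs1 and Srebf2, which fell, and Insig1 and Tm7sf2, which rose. The sequences are from RefSeq on GRCm38.p6, 250 bases before to 50 after the start site, written 5′ to 3′ in the direction of the gene. They lie at chr13:119690101-119690400 (Hmgcs1, plus strand), chr15:82147019-82147318 (Srebf2, plus strand), chr5:28071162-28071461 (Insig1, plus strand) and chr19:6067801-6068100 (Tm7sf2, minus strand). Capitals mark TCACNCCAC, a form of the sterol regulatory element that SREBP binds, and CCAAT, the box bound by its partner NF-Y, on either strand.
Hmgcs1: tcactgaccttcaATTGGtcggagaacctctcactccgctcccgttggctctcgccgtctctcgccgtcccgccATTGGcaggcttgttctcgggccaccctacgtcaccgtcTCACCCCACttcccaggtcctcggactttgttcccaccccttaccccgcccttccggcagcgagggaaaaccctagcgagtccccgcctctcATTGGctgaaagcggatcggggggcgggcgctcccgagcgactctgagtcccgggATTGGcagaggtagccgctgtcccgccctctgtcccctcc
Srebf2: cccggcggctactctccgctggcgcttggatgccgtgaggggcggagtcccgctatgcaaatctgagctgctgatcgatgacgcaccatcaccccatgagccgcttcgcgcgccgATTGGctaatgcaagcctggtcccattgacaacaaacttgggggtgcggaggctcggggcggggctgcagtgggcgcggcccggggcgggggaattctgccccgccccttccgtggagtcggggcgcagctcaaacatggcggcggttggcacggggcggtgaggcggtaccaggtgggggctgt
Insig1: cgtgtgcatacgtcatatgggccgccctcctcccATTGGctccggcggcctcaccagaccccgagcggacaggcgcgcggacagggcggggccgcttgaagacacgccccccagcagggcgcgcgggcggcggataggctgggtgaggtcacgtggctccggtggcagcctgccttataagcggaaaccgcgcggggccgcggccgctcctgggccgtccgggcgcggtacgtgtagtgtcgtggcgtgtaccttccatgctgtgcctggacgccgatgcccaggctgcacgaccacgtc
Tm7sf2: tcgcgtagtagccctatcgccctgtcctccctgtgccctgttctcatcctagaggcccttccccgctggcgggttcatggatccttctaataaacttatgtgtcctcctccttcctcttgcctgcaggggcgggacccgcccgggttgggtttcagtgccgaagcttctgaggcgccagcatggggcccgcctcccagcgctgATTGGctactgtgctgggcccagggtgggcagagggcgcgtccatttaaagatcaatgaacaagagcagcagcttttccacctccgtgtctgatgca

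A promoter window was at hand for 24 of the 30 genes; the other 6 are Fdft1, Fdps, Sqle, Scd1, Scd2 and Stard4. TCACNCCAC was found in 1 of the 24, Hmgcs1, where it begins 137 bases upstream of the start site; 1.36% of the 10399 tested genes with a window hold it. CCAAT was found in 21 of the 24 genes (87.5%), against 42.9% of tested genes with a window. In Hmgcs1 it occurs 4 times, and in Srebf2, Insig1 and Tm7sf2 once each, at 135, 216 and 47 bases upstream. For Hmgcs1 and Insig1 the bases just after the RefSeq start site were not found at the beginning of any GENCODE M21 transcript. Distances in these genes therefore depend on the annotation. GGGCGG, the box of the factor Sp1 that often acts beside SREBP, was found in 20 of the 24 genes (83.3%), against 66.5% of tested genes. CACGTG, an E-box that SREBP1 can also bind, was in 5 of the 24 (20.8%), against 11.5%. Both strands were searched for each motif, but only for the letters given, so other forms of the sterol regulatory element are not counted. CCAAT was thus present in promoters of genes that fell and of genes that rose, and these matches are letters in a window and not measured binding.

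The mevalonate arm, which makes the isoprenoid units shared by sterols, ubiquinone and prenylated proteins, had 4 of its 6 genes lower in shTlr7, none higher and 2 not called. Its clearest member was Fdps, the farnesyl diphosphate synthase at the branch point between those products, with 143, 169.6, 158 and 177 CPM in shTlr7 replicates 1 to 4, against 196, 208, 213 and 189 CPM in shCtrl replicates 1 to 4. All shTlr7 values lay below all shCtrl values, and the level in shTlr7 was 0.803 times that in shCtrl (log2 fold change -0.32 ± 0.06 (SE), adjusted p = 8.16e-04). Hmgcs1, the cytosolic HMG-CoA synthase that starts the pathway, averaged 294 ± 30.8 CPM in shTlr7 and 337 ± 15.5 CPM in shCtrl (SD, n = 4 each), and its groups overlapped (log2 fold change -0.19 ± 0.07 (SE), adjusted p = 0.0254). Mvk, mevalonate kinase, averaged 32.6 ± 2.37 CPM in shTlr7 and 37.1 ± 1.89 CPM in shCtrl and also overlapped (log2 fold change -0.18 ± 0.06 (SE), adjusted p = 0.0196). Idi1, the isomerase of isopentenyl diphosphate, averaged 30.03 ± 1.118 CPM in shTlr7 and 33.8 ± 3.20 CPM in shCtrl and overlapped as well (log2 fold change -0.18 ± 0.07 (SE), adjusted p = 0.0383). These 3 calls were the weakest among the 30 genes and were lost when single libraries were left out. The adjusted p of Hmgcs1 was 0.0606 without shCtrl replicate 2, 0.0632 without shCtrl replicate 4, 0.0770 without shTlr7 replicate 1 and 0.0711 without shTlr7 replicate 3. That of Mvk was 0.0504 without shCtrl replicate 1, 0.0531 without shCtrl replicate 2 and 0.0585 without shTlr7 replicate 1. That of Idi1 was 0.154 without shCtrl replicate 2 and lay between 0.0606 and 0.0914 without shCtrl replicate 3 or without shTlr7 replicate 1, 3 or 4. Exons overlapped other annotated genes over 26.7% of Fdps and 12.1% of Hmgcs1. Of the 50-base words of Idi1, 17.7% occur in other genes. The counts of Fdps, Hmgcs1 and Idi1 are uncertain to that extent. Gm43738 and Gm48342, which overlap Fdps and Hmgcs1, have no row by those names in the count table. Neither has Gm13502, the gene that shares the most words with Idi1. The enzymes between Mvk and Idi1 were not called. Pmvk, phosphomevalonate kinase, ranged over 49.5 to 58.3 CPM in shTlr7 and 49.96 to 59.5 CPM in shCtrl, with a log2 fold change of -0.02 (95% interval -0.15 to 0.12, adjusted p = 0.826). Mvd, the decarboxylase that forms isopentenyl diphosphate, ranged over 22.7 to 30.1 CPM in shTlr7 and 22.8 to 25.4 CPM in shCtrl, with a log2 fold change of 0.14 (95% interval -0.04 to 0.33, adjusted p = 0.162).

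Squalene marks the commitment to sterols, and the gene at that step fell most among the enzymes. Fdft1, squalene synthase (chr14:63145150-63181687, minus strand, GRCm38.p6), had 126, 132, 121 and 141 CPM in shTlr7 replicates 1 to 4, against 181, 182, 185 and 189 CPM in shCtrl replicates 1 to 4. The groups were far apart relative to the spread within each, at 0.706 times the shCtrl level (log2 fold change -0.50 ± 0.05 (SE), adjusted p = 1.04e-06). Fdft1 shares 18.3% of its exon bases with Ctsb on the opposite strand, and because the strand setting of the counting is not known its count may hold Ctsb reads; Ctsb itself had a log2 fold change of -0.12 and an adjusted p of 0.0520. Sqle, squalene epoxidase, a control point of the pathway after mevalonate, had 254, 271, 256 and 267 CPM in shTlr7 and 283, 304, 293 and 296 CPM in shCtrl. The groups did not overlap, but the difference was small (log2 fold change -0.17 ± 0.04 (SE), adjusted p = 0.00280). Lss, which folds the epoxide into lanosterol, was not called: it ranged over 90.1 to 107 CPM in shTlr7 and 101 to 108 CPM in shCtrl, with a log2 fold change of -0.09 (95% interval -0.21 to 0.04, adjusted p = 0.217).

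Of the enzymes that turn lanosterol into cholesterol, 5 fell, 2 rose and 1 was not called. Cyp51, the lanosterol demethylase, had 200.2, 223, 207 and 222 CPM in shTlr7 and 237, 249, 237 and 245 CPM in shCtrl. The groups were separate (log2 fold change -0.18 ± 0.04 (SE), adjusted p = 0.00300). Tm7sf2, the sterol reductase that acts next (chr19:6062821-6067850, minus strand), went the other way, with 35.8, 34.7, 35.5 and 38.5 CPM in shTlr7 replicates 1 to 4, against 23.1, 24.0, 23.7 and 25.4 CPM in shCtrl replicates 1 to 4. Every shTlr7 library stood above every shCtrl library, at 1.498 times the shCtrl level (log2 fold change 0.58 ± 0.05 (SE), adjusted p = 1.11e-06), which made it the largest change among the 30 genes. Tm7sf2 shares 12.1% of its exon bases with Vps51 on the same strand, which leaves its count uncertain; Vps51 fell (log2 fold change -0.55, adjusted p = 1.15e-06). Msmo1, which oxidises the methyl groups at carbon 4 of the sterol ring, was not called and ranged over 249 to 288 CPM in shTlr7 and 249.6 to 271 CPM in shCtrl, with a log2 fold change of 0.01 (95% interval -0.10 to 0.12, adjusted p = 0.839). The dehydrogenase and the reductase that work with it both fell. Nsdhl, the dehydrogenase, had 52.6, 58.5, 53.6 and 59.3 CPM in shTlr7 and 71.6, 71.4, 75.0 and 64.9 CPM in shCtrl, and its groups did not overlap (log2 fold change -0.33 ± 0.06 (SE), adjusted p = 2.06e-04). Hsd17b7, the reductase, had 43.5, 41.9, 43.6 and 42.4 CPM in shTlr7 and 51.3, 54.5, 54.5 and 48.6 CPM in shCtrl, again with no overlap (log2 fold change -0.29 ± 0.05 (SE), adjusted p = 2.34e-04).

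Ebp, the sterol isomerase that moves a ring double bond, had 39.4, 40.8, 43.7 and 42.4 CPM in shTlr7 and 49.9, 45.3, 50.8 and 45.6 CPM in shCtrl. The shTlr7 values were all lower, by a small margin (log2 fold change -0.20 ± 0.05 (SE), adjusted p = 0.00687). The last enzymes of the branch through 7-dehydrocholesterol moved in opposite directions. Sc5d, the desaturase that makes 7-dehydrocholesterol, had 118, 118, 114 and 119.7 CPM in shTlr7 replicates 1 to 4, against 141, 146, 147 and 152 CPM in shCtrl replicates 1 to 4. All shTlr7 libraries were lower (log2 fold change -0.32 ± 0.04 (SE), adjusted p = 1.07e-05). Dhcr7, the reductase that turns 7-dehydrocholesterol into cholesterol (chr7:143823167-143848410, plus strand), had 145, 142, 128 and 146 CPM in shTlr7 replicates 1 to 4, against 111, 106, 105 and 104 CPM in shCtrl replicates 1 to 4. Here all shTlr7 libraries were higher (log2 fold change 0.40 ± 0.05 (SE), adjusted p = 1.20e-05). The 2 sterol enzymes that rose are both reductases of the late pathway, but Hsd17b7, also a reductase of that part, fell.

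**Figure D2:**
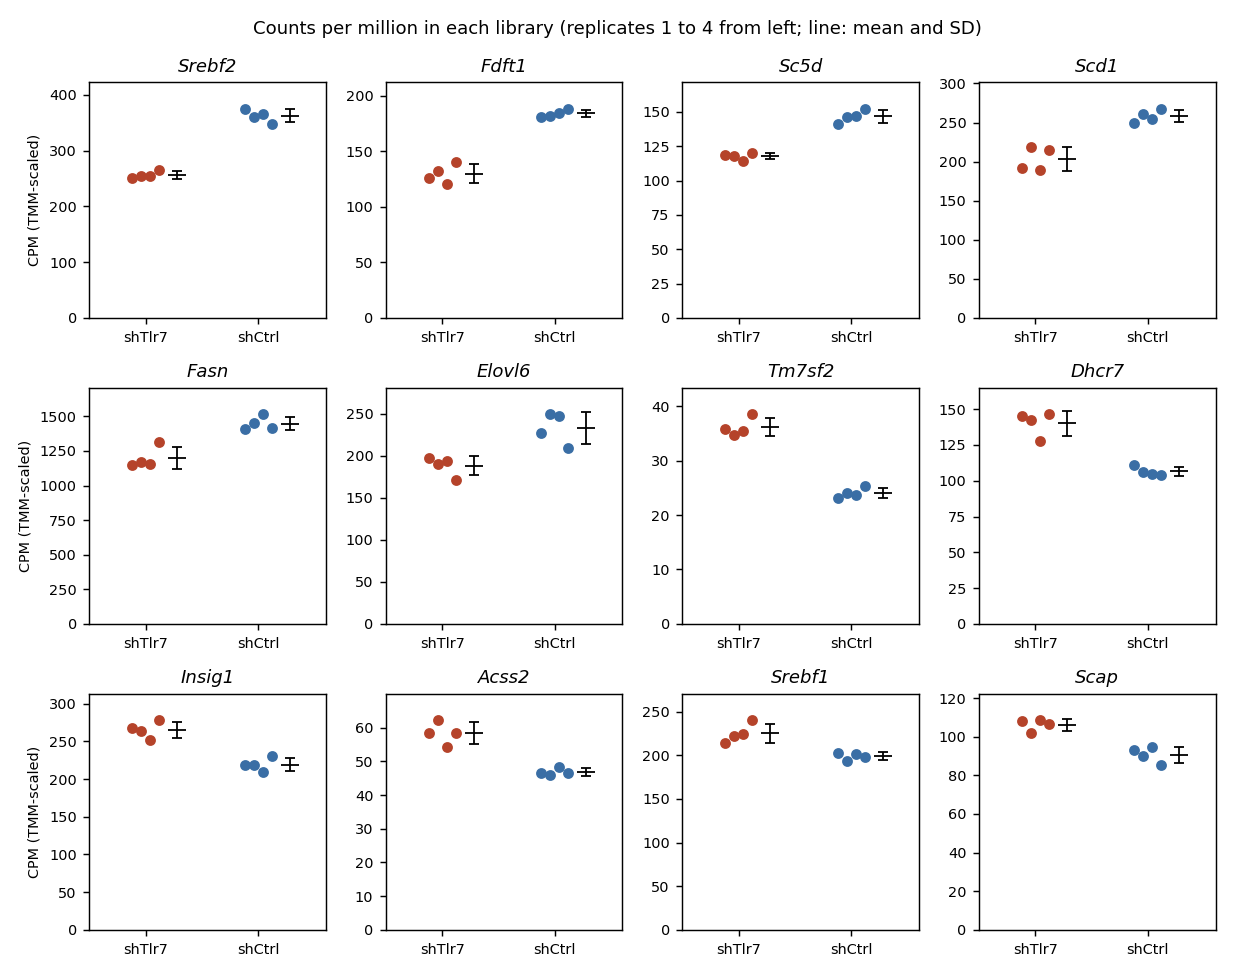
CPM in each library for 12 of the genes, on linear axes from 0; points are shTlr7 replicates 1 to 4 (left of each panel) and shCtrl replicates 1 to 4 (right), and the bars are the mean and SD. The Tm7sf2, Dhcr7 and Insig1 points of shTlr7 lie above those of shCtrl, and the Fdft1 and Srebf2 points lie below.

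The regulators did not move as one. Srebf2, which encodes SREBP2 (chr15:82147269-82205379, plus strand), had 250.3, 255, 255 and 265 CPM in shTlr7 replicates 1 to 4, against 376, 361, 366 and 348 CPM in shCtrl replicates 1 to 4. The groups were far apart, and the shTlr7 level was 0.706 times that of shCtrl (log2 fold change -0.50 ± 0.04 (SE), adjusted p = 1.82e-07), the lowest p of the 30 genes. Srebf1, which encodes the SREBP1 forms, had 214, 222, 225 and 240.1 CPM in shTlr7 replicates 1 to 4, against 203, 194, 202 and 198 CPM in shCtrl replicates 1 to 4. All shTlr7 libraries were higher, by a much smaller factor of 1.13 (log2 fold change 0.18 ± 0.04 (SE), adjusted p = 0.00247). Gene-level counts do not separate the SREBP1a and SREBP1c transcripts. Scap, the escort of both proteins, had 108, 102, 108 and 106 CPM in shTlr7 and 93.3, 89.8, 94.5 and 85.3 CPM in shCtrl. It rose with no overlap (log2 fold change 0.23 ± 0.04 (SE), adjusted p = 6.37e-04), and 13.2% of its exon bases overlap another annotated gene on the opposite strand. That gene, 5830462I19Rik, has no row by that name in the count table. Insig1, the retention protein that is itself a well known SREBP target, had 268, 264, 252 and 278 CPM in shTlr7 replicates 1 to 4, against 219, 218, 209 and 229.9 CPM in shCtrl replicates 1 to 4. Its shTlr7 values were all higher, at 1.21 times the shCtrl level (log2 fold change 0.28 ± 0.04 (SE), adjusted p = 9.75e-05), while most of the enzyme genes under SREBP control stood lower. Its paralogue Insig2 was not called and ranged over 114 to 128 CPM in shTlr7 and 113 to 122 CPM in shCtrl, with a log2 fold change of 0.05 (95% interval -0.06 to 0.15, adjusted p = 0.420). Stard4, a cytosolic carrier of cholesterol between membranes, ranged over 143 to 159.5 CPM in shTlr7 and 156 to 171 CPM in shCtrl, with a log2 fold change of -0.11 (95% interval -0.21 to -0.01, adjusted p = 0.0557). Stard4 was past the threshold without shCtrl replicate 3 (adjusted p = 0.0447) or without shTlr7 replicate 2 (adjusted p = 0.0292), and with other scalings and filters, always with a lower level in shTlr7.

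Of the 7 fatty acid enzymes, 5 fell, 1 rose and 1 was not called. Acetyl-CoA is supplied from citrate or from acetate, and the genes of these routes went in opposite directions. Acly, which splits citrate, had 463, 475, 476 and 472 CPM in shTlr7 replicates 1 to 4, against 535, 569, 561 and 507 CPM in shCtrl replicates 1 to 4. All shTlr7 libraries were lower (log2 fold change -0.20 ± 0.04 (SE), adjusted p = 0.00112). Acss2, which activates acetate, had 58.5, 62.1, 54.2 and 58.4 CPM in shTlr7 replicates 1 to 4, against 46.5, 46.0, 48.4 and 46.4 CPM in shCtrl replicates 1 to 4. It was the fatty acid enzyme that rose, with no overlap (log2 fold change 0.32 ± 0.05 (SE), adjusted p = 1.10e-04). Other genes on the opposite strand overlap 9.12% of its exon bases, which leaves its count uncertain; among them Gss rose (log2 fold change 0.55, adjusted p = 4.51e-05) and Ggt7 was not called. Acaca, acetyl-CoA carboxylase, which makes malonyl-CoA, had 91.5, 88.4, 83.8 and 91.0 CPM in shTlr7 and 99.0, 104, 105 and 95.6 CPM in shCtrl. Its groups were apart by a small margin (log2 fold change -0.19 ± 0.05 (SE), adjusted p = 0.00330). In addition, 30.4% of the 50-base words of its transcripts occur in other annotated genes, Gm5182 most of all, so its count is uncertain. Gm5182 has no row by that name in the count table.

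Fasn, the synthase that builds palmitate, was among the most abundant of these mRNAs, with 1152, 1169.7, 1159 and 1313 CPM in shTlr7 replicates 1 to 4, against 1408, 1455, 1514 and 1417 CPM in shCtrl replicates 1 to 4. No shTlr7 library reached the lowest shCtrl library, although shTlr7 replicate 4 stood well above the others of its group (log2 fold change -0.27 ± 0.05 (SE), adjusted p = 3.52e-04). Elovl6, which elongates palmitate to stearate, had 197, 189.9, 193 and 171 CPM in shTlr7 replicates 1 to 4, against 227, 249, 247 and 209 CPM in shCtrl replicates 1 to 4. The groups did not overlap, with replicate 4 the lowest library in both (log2 fold change -0.31 ± 0.06 (SE), adjusted p = 6.17e-04). Scd1, the desaturase that makes oleate and palmitoleate, had 191, 219, 189.9 and 214 CPM in shTlr7 replicates 1 to 4, against 249, 261, 255 and 268 CPM in shCtrl replicates 1 to 4. All shTlr7 values were lower (log2 fold change -0.34 ± 0.05 (SE), adjusted p = 7.82e-05). Scd2, its paralogue, was not called, at 3494, 3682, 3198 and 3732 CPM in shTlr7 replicates 1 to 4, against 3356, 3434, 3275 and 3580.4 CPM in shCtrl replicates 1 to 4. Its groups overlapped, and the log2 fold change of 0.05 had a 95% interval of -0.07 to 0.16 (adjusted p = 0.461).

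Sterol and fatty acid enzymes were set side by side as the design of the gene set asks. Among the 17 sterol enzymes 11 fell (64.7%) and 2 rose, with a median log2 fold change of -0.18, and among the 7 fatty acid enzymes 5 fell (71.4%) and 1 rose, with a median of -0.20; of all genes tested 26.8% fell and 29.3% rose. On library size only, 5 sterol enzymes fell and 3 rose, with a median of -0.0789, and 4 fatty acid enzymes fell and 2 rose, with a median of -0.10. The mean log2 CPM of the sterol enzymes, relative to the shCtrl mean, was -0.18, -0.06, -0.16 and -0.03 in shTlr7 replicates 1 to 4, and -0.02, 0.03, 0.02 and -0.02 in shCtrl replicates 1 to 4. For the fatty acid enzymes it was -0.14, -0.10, -0.20 and -0.11 in shTlr7, and -0.03, 0.03, 0.03 and -0.04 in shCtrl. On this TMM scaling every shTlr7 library lay below every shCtrl library in both classes, and shTlr7 replicates 1 and 3 lay lowest in both. The margin was narrow for sterol enzymes, with shTlr7 replicate 4 at -0.035 and shCtrl replicates 1 and 4 at -0.022. Library means were not computed on library size only, where the median of all genes shifted by 0.10, so this separation depends on the scaling. The 6 regulators were at 0.02, 0.03, -0.01 and 0.04 in shTlr7 and 0.01, 0.001, -0.004 and -0.01 in shCtrl, with overlapping groups. The 2 classes of enzymes thus had similar medians, and no test of a difference between them was made because genes are not replicates.

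**Figure D3:**
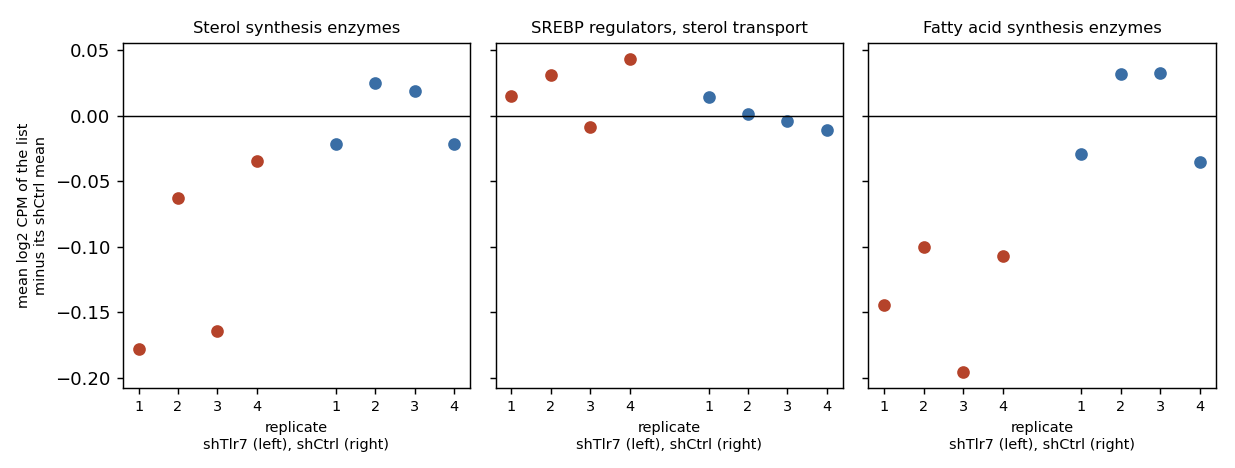
Mean log2 CPM of the sterol enzymes (17 genes), the regulators (6) and the fatty acid enzymes (7) in each library, minus the mean of the shCtrl libraries; shTlr7 points stand left of shCtrl points. Sterol and fatty acid means of shTlr7 lie below those of shCtrl, and the regulator means overlap.

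Ratios of counts within a library do not depend on scaling, and 5 pairs, chosen after their values were seen, show how unevenly the genes moved. Srebf1 over Srebf2 was 0.855, 0.874, 0.883 and 0.905 in shTlr7 and 0.541, 0.537, 0.551 and 0.568 in shCtrl. The paralogues were thus closer to equal counts in shTlr7, a log2 difference of 0.68. Scd1 over Scd2 was 0.0548, 0.0595, 0.0594 and 0.0575 in shTlr7 and 0.0743, 0.0760, 0.0778 and 0.0748 in shCtrl, a log2 difference of -0.39. Scd1 shares 4.56% of its 50-base words with other genes and Scd2 3.97%, and reads of that part cannot be told apart by sequence. Dhcr7 over Sc5d, the last 2 enzymes described above, was 1.23, 1.20, 1.11 and 1.22 in shTlr7 and 0.787, 0.727, 0.710 and 0.682 in shCtrl. More Dhcr7 than Sc5d was counted in every shTlr7 library and less in every shCtrl library. Tm7sf2 over Fdft1 was 0.284, 0.262, 0.293 and 0.274 in shTlr7 and 0.128, 0.132, 0.128 and 0.135 in shCtrl, the widest of these log2 differences at 1.09. Insig1 over Insig2 was 2.11, 2.06, 2.15 and 2.43 in shTlr7 and 1.85, 1.78, 1.77 and 2.04 in shCtrl, and the groups of all 5 ratios were apart.

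Levels per length place these changes on very different amounts of mRNA. Per kilobase of exon, over the union of annotated exons, Scd2 was the most abundant of the 30 genes at 645 ± 44.2 CPM per kb in shTlr7 and 624 ± 23.8 CPM per kb in shCtrl (SD, n = 4 each). Fasn followed at 109 ± 7.02 CPM per kb in shTlr7 and 132 ± 4.40 CPM per kb in shCtrl, and Acly came after it at 89.3 ± 1.119 CPM per kb in shTlr7 and 103 ± 5.28 CPM per kb in shCtrl. Insig1 reached 85.8 ± 3.40 CPM per kb in shTlr7 and 70.8 ± 2.79 CPM per kb in shCtrl, above Hmgcs1 in shTlr7, where Hmgcs1 was at 64.1 ± 6.70 CPM per kb in shTlr7 and 73.3 ± 3.37 CPM per kb in shCtrl. In shCtrl this pair stood in the reverse order, with levels close to each other. Srebf2 had 35.7 ± 0.892 CPM per kb in shTlr7 and 50.5 ± 1.58 CPM per kb in shCtrl. Srebf1 had 40.0 ± 1.92 CPM per kb in shTlr7 and 35.3 ± 0.769 CPM per kb in shCtrl. Per kilobase, Srebf1 was thus the higher of them in shTlr7 and the lower in shCtrl. In raw counts Srebf1 stood below Srebf2, and Insig1 below Hmgcs1, in every library of both groups. Both orders in shTlr7 therefore rest on the union exon lengths, which were 5634 bases for Srebf1 and 7184 for Srebf2. Tm7sf2, Acss2 and Acaca were the 3 lowest genes in shTlr7, Tm7sf2 at 8.20 ± 0.376 CPM per kb in shTlr7 and 5.46 ± 0.221 CPM per kb in shCtrl. Union exons of Acaca, Fasn, Lss and Acss2 are long, which lowers their value per kilobase.

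**Figure D4:**
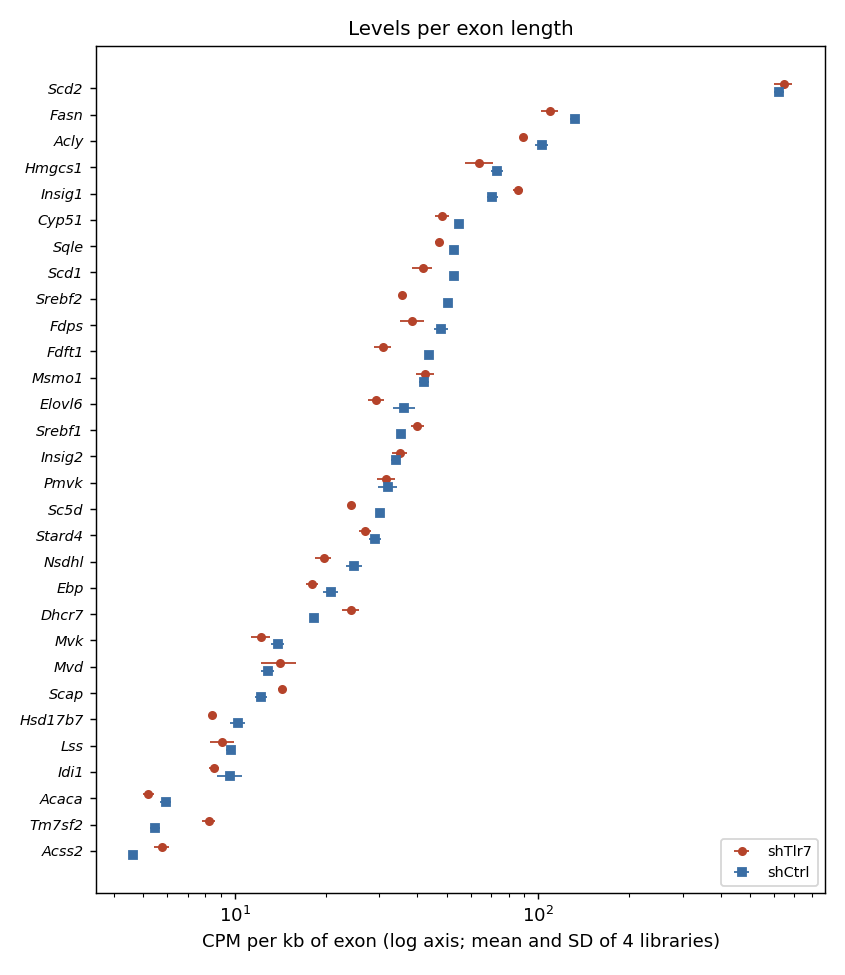
Mean level of the 30 genes in CPM per kilobase of union exon on a log axis, with bars for the SD over 4 libraries, shTlr7 and shCtrl as separate points. Scd2 stands above all others, and Acss2, Acaca and Tm7sf2 lie at the low end.

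Genes of neighbouring lipid pathways were counted in the same fit. In the isoprenoid and ubiquinone branches, which draw on the same mevalonate products, 7 of 13 genes rose, 4 fell and 2 were not called, with a median log2 fold change of 0.24. These shares of 53.8% that rose and 30.8% that fell stand beside 29.3% and 26.8% of all genes tested, and on library size only 9 rose and 2 fell. Rabggtb, a subunit of the enzyme that prenylates Rab proteins, averaged 123 ± 1.85 CPM in shTlr7 and 89.6 ± 4.30 CPM in shCtrl (log2 fold change 0.46 ± 0.04 (SE), adjusted p = 1.07e-06). Fnta, the shared subunit of farnesyl and geranylgeranyl transferases, averaged 93.7 ± 1.23 CPM in shTlr7 and 77.1 ± 2.76 CPM in shCtrl (log2 fold change 0.28 ± 0.04 (SE), adjusted p = 6.81e-05). Dhdds, which makes dolichol precursors, averaged 54.3 ± 1.53 CPM in shTlr7 and 45.3 ± 0.820 CPM in shCtrl (log2 fold change 0.26 ± 0.04 (SE), adjusted p = 1.75e-04). Icmt, which methylates prenylated proteins, fell and averaged 70.0 ± 3.77 CPM in shTlr7 and 89.8 ± 1.17 CPM in shCtrl (log2 fold change -0.36 ± 0.05 (SE), adjusted p = 1.86e-05).

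Among 10 genes of SREBP processing and turnover, 5 rose, 2 fell and 3 were not called, with a median log2 fold change of 0.15. Of all genes tested 29.3% rose and 26.8% fell, and on library size only 8 of the 10 rose and 1 fell. Lpin1, a phosphatidate phosphatase that also limits nuclear SREBP, fell most, with 34.2, 39.4, 33.1 and 35.9 CPM in shTlr7 replicates 1 to 4, against 65.1, 65.8, 64.1 and 61.2 CPM in shCtrl replicates 1 to 4. The groups were far apart (log2 fold change -0.84 ± 0.06 (SE), adjusted p = 5.78e-08). Erlin1, an endoplasmic reticulum protein that restrains SREBP activation, averaged 70.8 ± 1.37 CPM in shTlr7 and 50.3 ± 1.65 CPM in shCtrl (log2 fold change 0.49 ± 0.04 (SE), adjusted p = 6.04e-07). Rnf139, a ubiquitin ligase of the endoplasmic reticulum, also rose and averaged 111 ± 8.57 CPM in shTlr7 and 81.0 ± 6.67 CPM in shCtrl (log2 fold change 0.45 ± 0.07 (SE), adjusted p = 8.94e-05). The count of 2 that fell became 1 without shCtrl replicate 1 or 2, and without shTlr7 replicate 2 or 4.

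In cholesterol uptake, efflux, transport and storage, 18 of 21 genes were tested, of which 6 rose, 5 fell and 7 were not called, with a median log2 fold change of 0.03. The shares that rose (33.3%) and fell (27.8%) were near the 29.3% and 26.8% of all genes tested, so the count says nothing particular of the list. Nceh1, a hydrolase of cholesteryl esters, averaged 41.4 ± 4.16 CPM in shTlr7 and 24.3 ± 1.69 CPM in shCtrl (log2 fold change 0.76 ± 0.07 (SE), adjusted p = 1.53e-06). Soat1, which esterifies cholesterol for storage, averaged 122 ± 1.66 CPM in shTlr7 and 152 ± 8.41 CPM in shCtrl and fell (log2 fold change -0.31 ± 0.04 (SE), adjusted p = 4.15e-05). Scarb1, a receptor for high-density lipoprotein, averaged 161 ± 5.92 CPM in shTlr7 and 126 ± 6.99 CPM in shCtrl and rose (log2 fold change 0.35 ± 0.05 (SE), adjusted p = 2.77e-05). Lrp1, a large endocytic receptor for lipoprotein remnants and many other ligands, averaged 325 ± 45.6 CPM in shTlr7 and 681 ± 94.2 CPM in shCtrl and fell (log2 fold change -1.07 ± 0.12 (SE), adjusted p = 8.94e-05).

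Beyond the fatty acid enzymes above, 20 of 23 genes of acyl-CoA supply, elongation and desaturation were tested, of which 8 rose, 6 fell and 6 were not called, with a median log2 fold change of 0.10. That is 40% and 30% of those tested, beside 29.3% and 26.8% of all genes tested, and on library size only 12 rose and 3 fell. The acyl-CoA synthetases Acsl1 and Acsl4 moved in opposite directions. Acsl1 averaged 27.0 ± 1.38 CPM in shTlr7 and 14.5 ± 0.912 CPM in shCtrl (log2 fold change 0.89 ± 0.07 (SE), adjusted p = 1.15e-07). Acsl4, which prefers arachidonate, averaged 417 ± 13.6 CPM in shTlr7 and 679.9 ± 46.8 CPM in shCtrl (log2 fold change -0.71 ± 0.05 (SE), adjusted p = 8.11e-08). Acacb, the carboxylase isoform at mitochondria, averaged 25.7 ± 1.95 CPM in shTlr7 and 16.9 ± 1.07 CPM in shCtrl and rose, whereas Acaca fell (log2 fold change 0.62 ± 0.07 (SE), adjusted p = 7.77e-06). Fads2, a desaturase of polyunsaturated fatty acids, averaged 375 ± 26.7 CPM in shTlr7 and 295 ± 5.84 CPM in shCtrl and rose (log2 fold change 0.34 ± 0.05 (SE), adjusted p = 4.88e-05).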

How the data were processed

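RNA from 8 libraries was sequenced by the authors, who deposited 1 table of raw counts per gene, not normalized. STAR 2.7.5 and DESeq2 1.32.0, with the build GRCm38, are named per the submitters' processing notes, without roles; which program counted, with which strand setting and annotation, is not given in the sources used here. Groups came from the sample titles. Counts were filtered with filterByExpr, scaled by TMM and tested over all 13393 remaining genes in R 4.3.3 with edgeR 4.0.16 (robust quasi-likelihood test, group as the only term, Benjamini-Hochberg adjustment). The common biological coefficient of variation was 6.76%. The procedure was tested on simulated data. Chi-square per degree of freedom between libraries of 1 group was 2.15 to 20.4, so none was a repeat of another. Alternatives used limma 3.58.1 and DESeq2 1.42.0 among others.

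The genes and lists were chosen with earlier results of these data known. CPM per library are given for called genes whose groups do not overlap and for Srebf1, Srebf2 and Insig1; of each other lipid list the 4 tested genes with the lowest p are named, except 1 that is not reported here. Exon lengths and overlaps come from GENCODE M21. Of the 108 genes in the other lists 95 were tested. Further copies in the table exist for 7, of which 4 were not tested: Slc25a1, Agpat1, Acadvl and Ppard. The rows used held 0 counts in every library for Slc25a1 and Acadvl, and few for Agpat1 and Ppard. Reads of these genes may lie in the copies, so their lack of a test does not show that they were not expressed.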

Additional observations from a re-analysis of the deposited data

Results flagged for a closer look

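Of 60 groups of 4 libraries screened over the 30 genes, 2 held a library far from the rest, and chance alone gives about 1 in 20 such groups. Fasn had 1310 CPM in shTlr7 replicate 4, against 1150 to 1170 CPM in the other 3 shTlr7 libraries; all 4 remained below the shCtrl libraries. Mvk had 34.3 CPM in shCtrl replicate 4, against 37.9 to 38.2 CPM in the other 3 shCtrl libraries, a value within the range of the shTlr7 libraries.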

How the results depend on the processing

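The fit was repeated under 19 alternatives. Of the 23 genes called among the 30, 16 kept their call and direction under all of them (6 higher and 10 lower). The other 7, all lower, were Hmgcs1, Mvk, Idi1, Sqle, Cyp51, Ebp and Acaca, and each lost its call on library size only. That setting gave 10 lower among the 30 genes, 5 lower among sterol enzymes, 2 higher among fatty acid enzymes, 2 lower in the isoprenoid list, 8 higher and 1 lower in SREBP processing, 3 lower in acyl-CoA supply and 1 lower in fatty acid oxidation, with median log2 fold changes of -0.0789 for sterol and -0.10 for fatty acid enzymes. The cause was not tested. Lower regulators numbered 2 instead of 1, through Stard4, under RLE scaling, DESeq2, a filter of at least 1 CPM in 4 libraries, and copies summed. Without a filter on low counts, 1 gene of SREBP processing was lower. At adjusted p under 0.01, 2 isoprenoid genes and 1 of SREBP processing were lower and 6 of fatty acid oxidation were higher. Leaving out 1 library gave 1 to 2 lower regulators, 1 to 2 lower genes of SREBP processing, 14 to 18 lower among the 30 genes, and 7 to 9 higher in fatty acid oxidation. Among genes not called, Pmvk turned positive on library size only (0.0865), with limma-voom (0.0217) and with no filter (0.00198), and ranged from -0.0650 to 0.0196 with 1 library left out. Lss turned positive on library size only (0.0162), and Msmo1 ranged from -0.0369 to 0.0376 with 1 library left out. On library size only, Mvd (0.249, adjusted p = 0.0265), Insig2 (0.150, adjusted p = 0.0106) and Scd2 (0.152, adjusted p = 0.0267) were called higher.

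Same-numbered libraries were not taken as pairs: the labels do not say what a number marks, and their deviations correlated at -0.00676, 0.11, 0.12 and 0.38 for replicates 1 to 4, not all over 0.1. Replicates 2 and 4 matched their own number best, and replicates 1 and 3 did not. With the replicate block, 6 of the 30 genes were higher and 18 lower, 2 regulators among them through Stard4 (adjusted p = 0.0170), beside 4334 higher and 4005 lower of all genes. Each of the 30 genes was well counted in every library; the small size of the differences and the unknown strand setting limit what the values show.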

Other observations

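Fatty acid oxidation, which burns what the synthesis enzymes make, is given here for comparison: 10 of the 17 genes tested rose, 2 fell and 5 were not called, with a median log2 fold change of 0.13, beside 29.3% and 26.8% of all genes tested that rose and fell. With 1 library left out, 7 to 9 rose, and at adjusted p under 0.01 6 rose. Cpt1a, which admits fatty acids to mitochondria, averaged 85.9 ± 8.02 CPM in shTlr7 and 46.0 ± 4.58 CPM in shCtrl (log2 fold change 0.90 ± 0.08 (SE), adjusted p = 1.28e-06). Cpt2, the partner on the inner membrane, averaged 49.1 ± 1.14 CPM in shTlr7 and 34.2 ± 2.64 CPM in shCtrl (log2 fold change 0.52 ± 0.06 (SE), adjusted p = 5.14e-06). Eci1, an isomerase for unsaturated chains, averaged 40.3 ± 0.638 CPM in shTlr7 and 29.9 ± 0.997 CPM in shCtrl (log2 fold change 0.43 ± 0.05 (SE), adjusted p = 4.71e-06). Hadh, a dehydrogenase of the cycle, averaged 79.3 ± 1.15 CPM in shTlr7 and 108 ± 4.45 CPM in shCtrl and fell (log2 fold change -0.45 ± 0.04 (SE), adjusted p = 1.06e-06).

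In triglyceride synthesis and lipid droplets, 7 of the 17 genes tested rose, 5 fell and 5 were not called, with a median of 0.08. That is 41.2% and 29.4% of those tested, beside 29.3% and 26.8% of all genes tested. The 4 genes with the lowest p all fell, although more genes of the list rose than fell. Gpat4, an acyltransferase at the first step of glycerolipid synthesis, averaged 115 ± 3.36 CPM in shTlr7 and 164 ± 2.11 CPM in shCtrl (log2 fold change -0.51 ± 0.04 (SE), adjusted p = 1.02e-07). Plin2, a coat protein of lipid droplets, averaged 83.9 ± 2.69 CPM in shTlr7 and 118 ± 5.0 CPM in shCtrl (log2 fold change -0.49 ± 0.04 (SE), adjusted p = 7.35e-07). Abhd5, the activator of the main triglyceride lipase, averaged 49.0 ± 3.32 CPM in shTlr7 and 69.2 ± 1.61 CPM in shCtrl (log2 fold change -0.50 ± 0.05 (SE), adjusted p = 2.94e-06). Mgll, a monoglyceride lipase, stood at a low level and averaged 0.311 ± 0.0560 CPM in shTlr7 and 1.47 ± 0.287 CPM in shCtrl (log2 fold change -2.37 ± 0.23 (SE), adjusted p = 1.73e-06).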
